A study of Homo sapiens with 9 samples.

Results

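The regions described here are those of the human genome with a called peak of both zinc finger proteins, zfp148 and zfp281, in every one of their libraries and no called peak in the control. Each is a row of the authors' pooled bio-zfp148 peak list. It shared 1 bp or more with peaks of both single bio-zfp148 libraries, of the pooled bio-zfp281 list and of both single bio-zfp281 libraries, and with none of the 3 control lists. The rule kept 2077 of the 44202 peaks in the pooled bio-zfp148 list (4.70%). These 2077 are called shared places below. They were chosen by the authors' peak calls in these same libraries, so their tag counts, fold enrichments and distances are given as descriptions and were put to no test.

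All cells were K562, a human line from a chronic myelogenous leukaemia, and all stably expressed BirA, a bacterial ligase that attaches biotin to a short acceptor motif. The control cells carried BirA alone, while bio-zfp148 and bio-zfp281 cells also carried zfp148 or zfp281 with an amino-terminal acceptor motif of 23 amino acids, in selected clones with levels near those of the endogenous protein. Every group received hemin for 48 h, at 50 mM as the labels give it (a concentration far above that in common use for K562, and not checked here), was fixed with 1% formaldehyde for 10 min, and was put through streptavidin ChIP-seq. There were 6 ChIP libraries, 2 per group, and 3 inputs, which enter only through the authors' peak calls. Each tagged protein was thus seen in selected clones and not at its untagged locus, and the labels do not say whether replicates came from separate cultures.

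ZBP-89, the product of ZNF148, and ZBP-99, the product of ZNF281, are closely related zinc finger factors whose fingers contact G-rich DNA. ZBP-89 is known from erythroid cells as a partner of GATA1 and of histone acetyltransferases, and hemin pushes K562 cells towards the erythroid fate. Biotin capture avoids antibodies that could recognise both relatives, but naturally biotinylated proteins and sticky chromatin can also be recovered, which the BirA cells measure.

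Depth was low. Once duplicates were gone, the bio-zfp148 libraries had 810565 (replicate 1) and 1497503 tags (replicate 2). The bio-zfp281 libraries had 1570283 and 906911 in that order, and the BirA libraries 15956688 and 1080363. Duplicate removal kept 10.5% to 34.5% of the mapped tags in these 6 libraries. BirA replicate 1 was by far the deepest library. Intervals given below cover counting error only and leave out variation between libraries. Reads without molecular identifiers are also not independent molecules, which the intervals on tags do not take into account.

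Of the 44202 pooled bio-zfp148 peaks, 4474 met all 5 required lists. Of these, 2397 met a control peak and were set aside, a share of 53.6% with an exact (Clopper-Pearson) 95% interval of 52.1% to 55.0%. BirA replicate 2 met 1725 of the places set aside, BirA replicate 1 met 1001, and the pooled BirA list met 1375. BirA replicate 2 alone set aside 948, against 57 for replicate 1 alone and 119 for the pooled list alone. The shallow control library, with a list of 7819 peaks, therefore removed more of these places than the deep one, with 66002 peaks.

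The places set aside were stronger than those kept. Their median strength in the pooled bio-zfp148 list was 69.3 tags per kb, against 52.6 at shared places. On the other side of the rule stood 2637 peaks outside BirA that missed exactly 1 list, with a median of 35.2. Of these, 1707 missed only bio-zfp281 replicate 2, 559 only bio-zfp148 replicate 1, 232 only bio-zfp148 replicate 2 and 139 only bio-zfp281 replicate 1. The shallower library of each protein was the one most often missed.

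Tags per kb, the raw tag count of a peak divided by its length, is the measure of strength used here. It is not scaled to depth and is read within a list. Shared places were long and rich in tags for their list. Their median length was 723 bp (quartiles 575 to 938) and their median tag count 39 (quartiles 27 to 58), against 492 bp and 10 tags over all pooled bio-zfp148 peaks. Their tags per kb ran from 14.5 to 419 with quartiles of 37.8 and 76.1, and the median over the whole list was 23.0. A shared place of median strength exceeded 91.4% of all pooled bio-zfp148 peaks. Since a peak had to be called in 5 further lists, the rule itself favours such peaks.

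The zfp281 side looked much the same. The pooled bio-zfp281 peaks matched to them had a median length of 823 bp, 44 tags and 52.4 tags per kb, with quartiles of 37.5 and 74.8. Over all 68319 pooled bio-zfp281 peaks the medians were 509 bp, 10 tags and 21.9 tags per kb. Sites of 1 protein alone had lower medians than shared places, but higher ones than all peaks of their own list. Their rule asked for a call in fewer lists, so the sets are not chosen alike. The 502 bio-zfp148 sites that met no bio-zfp281 list had a median of 31.7 tags per kb, and the 420 bio-zfp281 sites that met no bio-zfp148 list had 35.1. The highest value among the 502, 1561 tags per kb, was also the highest of the pooled bio-zfp148 list, at a peak of 5008 bp with 7817 tags. By fold enrichment the 502 did not stand out, with a highest value of 130 against 276 at shared places and 372 over the whole list.

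In the single libraries the shared places rested on few tags. The median tag count was 10 and 14 in bio-zfp148 replicates 1 and 2, and 17 and 8 in bio-zfp281 replicates 1 and 2. The corresponding medians of tags per kb were 17.7, 22.1, 23.8 and 15.6. Bio-zfp281 replicate 2 was the weakest support, with 365 shared places at its smallest matched count of 5 tags. At bio-zfp148 replicate 1, 192 shared places had the smallest count of 4 tags. The pooled lists held more tags than their replicates added together, with a median factor of 1.68 at bio-zfp148 peaks and 1.74 at bio-zfp281 peaks, and kept up to 2 tags per position where the replicates kept 1.

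The strongest shared place was chr17:58238865-58239308 (hg19, 444 bp). It held 186 tags in the pooled bio-zfp148 list, or 419 tags per kb (exact Poisson 95% interval 361 to 484). Its bio-zfp148 replicates 1 and 2 gave 92.5 and 165 tags per kb, its pooled bio-zfp281 peak 349, and its bio-zfp281 replicates 136 and 83.0. It ranked first or second among shared places in both pooled lists and in the second replicate of both proteins, and it ranked 5 and 3 in the first replicates of bio-zfp148 and bio-zfp281. All 6 summits, the points of highest pile-up, lay within 24 bp of the pooled bio-zfp148 summit.

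The places ranked 2 to 4 were strong in all 4 libraries as well. At chr19:10863699-10864650, tags per kb were 315 in the pooled bio-zfp148 list, 94.1 and 92.2 in its replicates, 191 in the pooled bio-zfp281 list, and 82.7 and 66.7 in its replicates. At chr6:158195052-158195498 the pooled bio-zfp148 value was 313, with replicates of 103 and 136, and the pooled bio-zfp281 value 136, with replicates of 55.2 and 42.7. At chr14:95591674-95592387 the pooled values were 304 and 132, with 99.4 and 106 in the bio-zfp148 replicates and 59.1 and 41.9 in those of bio-zfp281. In each of these 3 the pooled summits of the 2 proteins were close, at 20, 8 and 39 bp.

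**Figure D1:**
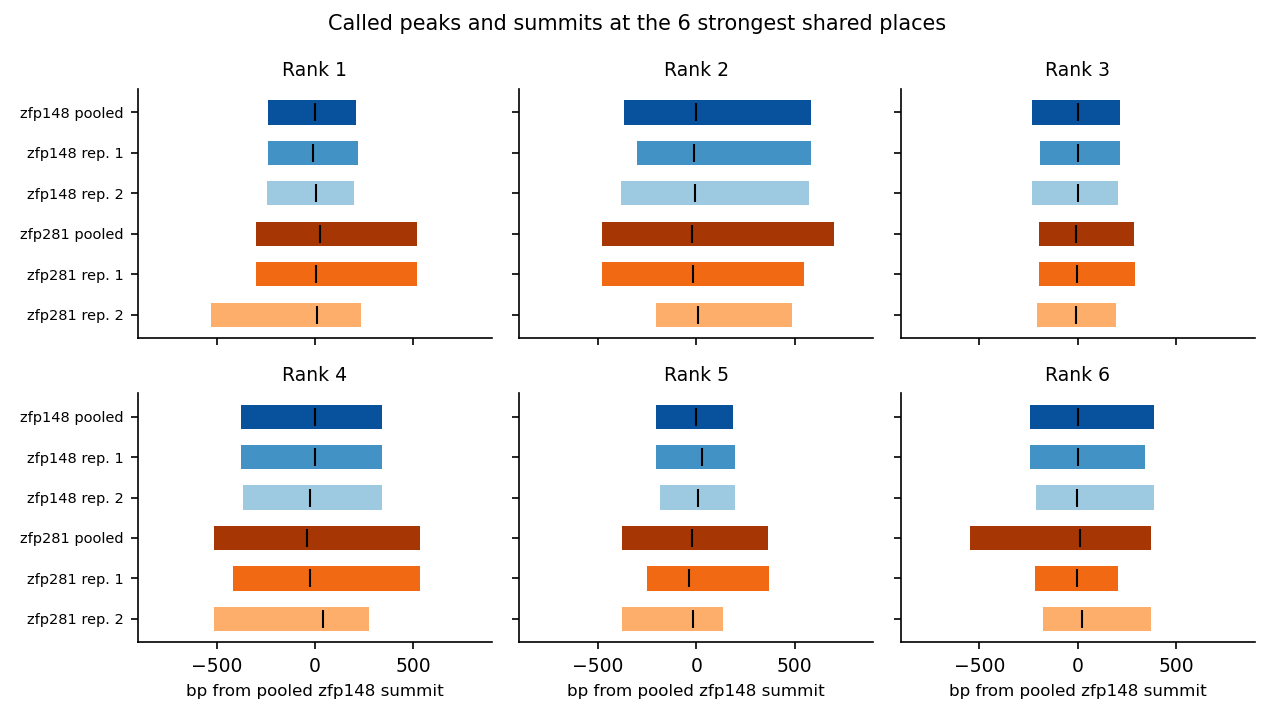
Extent of the called peaks (bars) and their summits (black ticks) in the 6 lists at the 6 strongest shared places, in bp from the pooled bio-zfp148 summit. Every summit lies within 39 bp of the pooled bio-zfp148 summit, and the pooled bio-zfp281 peak is the wider of the pooled peaks at all 6 places.

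The other strong places were not equal in both proteins. The place ranked 5, chr17:17572831-17573222, had 273 tags per kb for pooled bio-zfp148, 60.0 and 102 in its replicates, and only 55.2 for pooled bio-zfp281, with 22.5 and 19.5 in its replicates. It stood at rank 960 of 2077 in the pooled bio-zfp281 list. Conversely chr8:142424797-142425430, ranked 17, had 222 tags per kb for pooled bio-zfp148 and 274 for pooled bio-zfp281. The bio-zfp148 replicates gave 66.8 and 70.2 there and the bio-zfp281 replicates 132 and 56.1, and its pooled bio-zfp281 fold enrichment of 417 was the highest of any peak in that list.

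Ranks 6 to 9 were chr3:99667147-99667777 (pooled bio-zfp148 and bio-zfp281 tags per kb of 273 and 78.4), chr8:145596258-145596984 (272 and 121), chr12:120826820-120827862 (267 and 159) and chr15:31508155-31508709 (263 and 205). Ranks 10 to 13 were chr1:26677093-26677680 (262 and 92.3), chr12:65085217-65085779 (249 and 205), chr20:61866490-61866896 (248 and 173) and chr4:40194886-40195460 (242 and 173). The remaining ones were chr3:4534902-4535335 (233 and 157), chr2:242126912-242127587 (228 and 135), chr19:52193511-52195067 (225 and 114), chr2:172950458-172951390 (222 and 101), chr7:123302635-123303149 (219 and 167) and chr2:236611932-236612741 (216 and 144). Pooled bio-zfp148 gave the higher value in all of these, the list that set their order. The next places down, chr12:111763128-111764699 and chr16:68100769-68101281, had 204 and 203 tags per kb in the pooled bio-zfp148 list.

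Some of the strongest places leaned on 1 bio-zfp281 replicate or on a wide pooled bio-zfp281 peak. At chr3:4534902-4535335, bio-zfp281 replicate 1 gave 136 tags per kb, second among shared places, while replicate 2 held 9 tags, or 13.2 tags per kb, at rank 1407, and its pooled bio-zfp281 peak met a BirA peak. At chr2:242126912-242127587 bio-zfp281 replicate 1 gave 66.5 and replicate 2 again only 9 tags, or 13.9 tags per kb. At chr19:52193511-52195067, which had the most tags of any shared place in the pooled bio-zfp148 list (351), the bio-zfp281 pooled peak was 4192 bp long and likewise met a BirA peak outside the place. That bio-zfp281 peak of 476 tags was also matched to a second shared place, chr19:52192717-52193382.

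The 20 strongest places lay on 13 chromosomes, with 3 on chromosome 2 and at most 2 on any other. Fold enrichment over input ranged from 35.7 to 276 in pooled bio-zfp148 and from 12.3 to 417 in pooled bio-zfp281. All 20 were above the median shared place in both bio-zfp148 replicates, 19 in bio-zfp281 replicate 1 and 18 in bio-zfp281 replicate 2, and 15 stood above the third quartile in all 4. The list that ranked them joins both bio-zfp148 replicates, so their standing in those replicates is largely set by the choice. Their rank depends on the measure. Of the 20, 10 stayed among the top 20 by tags, 10 by the worse of the ranks in both pooled lists, and only 2 by fold enrichment, which divides by the local input.

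**Figure D2:**
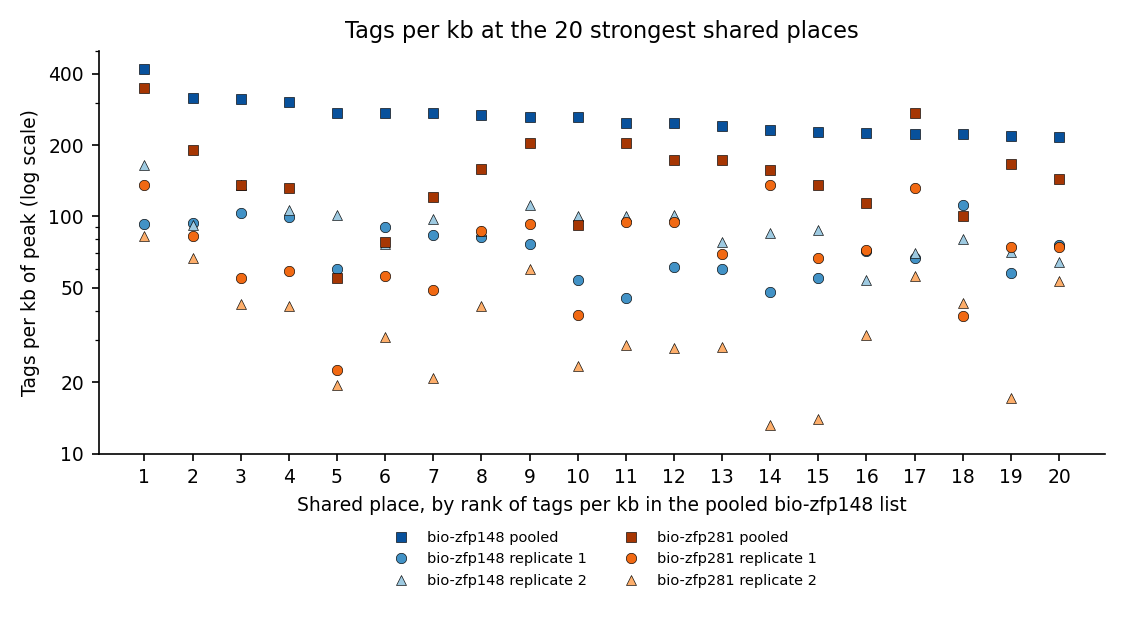
Tags per kb (log scale) at the 20 strongest shared places in the order of their pooled bio-zfp148 value, with 1 symbol per list. Pooled bio-zfp148 falls from 419 to 216 while pooled bio-zfp281 scatters between 55.2 and 349, and bio-zfp281 replicate 2 is often lowest, down to 13.2.

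Ranking by fold enrichment brought up other places. In 125 shared places the matched peaks of all 6 lists had a fold enrichment of at least 10, and 5 of these were among the strongest 20. The 3 places with the highest minimum over the 6 lists were not among the richest in tags. At chr9:140210150-140211087 the lowest of the 6 fold enrichments was 52.7, with 45 pooled bio-zfp148 tags and 23 pooled bio-zfp281 tags. At chr13:114519975-114520689 it was 44.2, with 36 and 27 tags, and at chr22:50745854-50746482 it was 43.2, with 24 and 16 tags. Single libraries held as few as 5 tags at each of these 3 places. These were bio-zfp281 replicate 2 at the chr9 place and bio-zfp148 replicate 1 at the chr13 and chr22 places. High fold enrichments there rest on few tags. The next, chr11:118768697-118769202, combined a lowest fold enrichment of 34.3 with 136 and 130 tags per kb.

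At the other end, 56 shared places had a fold enrichment under 1 in at least 1 list, 47 of them in bio-zfp281 replicate 2, 13 in bio-zfp281 replicate 1 and 5 in bio-zfp148 replicate 1. The widest shared place was one of them. At chr22:22172674-22175244 (2571 bp), pooled bio-zfp148 had 60.3 tags per kb and pooled bio-zfp281 had 34.6. Its fold enrichments were 8.07 and 2.23 in these lists, 0.78 and 3.93 in the bio-zfp148 replicates, and 0.94 and 0.29 in the bio-zfp281 replicates. The narrowest place, chr7:74362391-74362614 (224 bp), held 16 tags for pooled bio-zfp148 and 18 for pooled bio-zfp281, and 5 or 6 in each replicate. The place with the fewest pooled bio-zfp148 tags, chr9:91003591-91004035, had 9, with 5 in each bio-zfp148 replicate and 16 and 9 in the bio-zfp281 replicates.

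Places strong in 1 pooled list tended to be strong in the other. Spearman's rho over the 2077 places was 0.58 between the pooled lists. Between single libraries it was 0.51 for the bio-zfp148 replicates and 0.47 for the bio-zfp281 replicates. Across proteins, bio-zfp148 replicate 1 gave 0.37 and 0.36 with bio-zfp281 replicates 1 and 2, and bio-zfp148 replicate 2 gave 0.51 and 0.41. All points had to pass a threshold in every list, and the libraries differ in depth, so these values are descriptive. Of the 100 strongest places in each list, 39 were common to both pooled lists, 51 to both bio-zfp148 replicates, 32 to both bio-zfp281 replicates, and 28, 31, 39 and 28 to the 4 pairings across proteins in the same order.

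**Figure D3:**
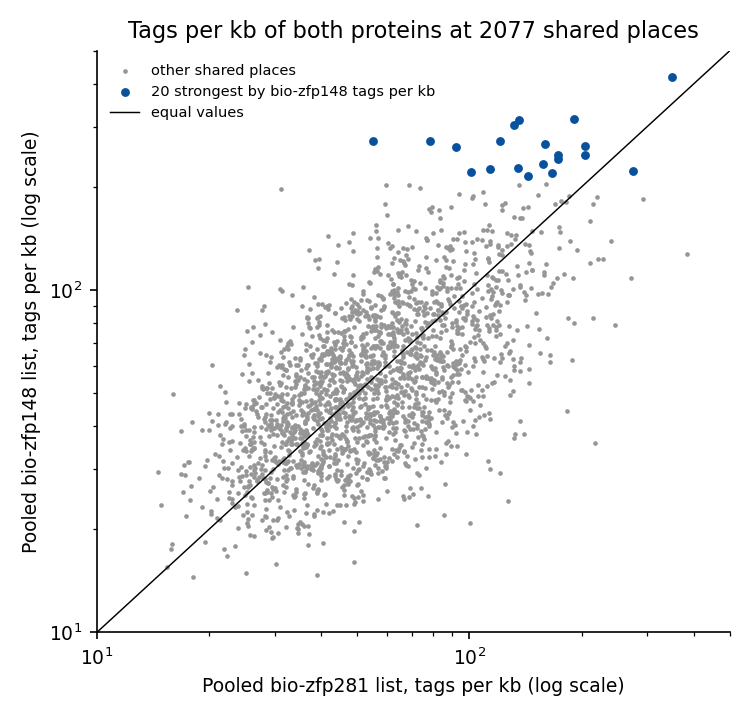
Tags per kb in the pooled bio-zfp148 list against the matched pooled bio-zfp281 peak for the 2077 shared places, both on log scales, with the 20 strongest by bio-zfp148 in blue and the line of equal values. The cloud lies on both sides of the line, with a median ratio of 1.02 in these unscaled values and 1.56 by fold enrichment.

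The ratio of pooled bio-zfp148 to pooled bio-zfp281 tags per kb had a median of 1.02 with quartiles of 0.744 and 1.38. This level depends on the scale, as the median ratio was 1.15 with both lists scaled to their filtered tags and 1.56 by fold enrichment. It lay between 0.5 and 2 at 1839 places (88.5%), above 2 at 118 and below 0.5 at 120. With tags per kb scaled to the filtered tags of each library, both bio-zfp148 libraries exceeded both bio-zfp281 libraries at 440 places (21.2%), against 22.3% of all 4474 places in the 6 lists before BirA removal. The reverse order held at 252 places (12.1%), against 12.9%. Both shares were close to that background.

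Among shared places, zfp148 was most in excess at chr4:31086150-31086571. Tags per kb were 197 for pooled bio-zfp148, 51.5 and 62.8 in its replicates, 31.1 for pooled bio-zfp281, and 14.7 and 8.57 in its replicates. The pooled ratio was 6.32 and the pooled summits were 15 bp apart. The next ratios belonged to chr17:17572831-17573222, described above, chr3:195868743-195869115 (102 and 25.4 tags per kb), chr11:125364775-125365265 (87.6 and 23.8) and chr4:74326497-74326840 (131 and 37.1). In 2 of these the peaks differed far more in extent than in tags. At chr3:195868743-195869115 the pooled peak was 373 bp long in bio-zfp148 and 1299 bp in bio-zfp281, with 38 and 33 tags, and the summits were 457 bp apart. At chr11:125364775-125365265 the lengths were 491 and 1304 bp, with 43 and 31 tags and summits 585 bp apart. Length also entered the other high ratios. The lengths were 422 and 739 bp at chr4:31086150-31086571 (83 and 23 tags) and 392 and 743 bp at chr17:17572831-17573222 (107 and 41 tags). At chr4:74326497-74326840 they were 344 and 647 bp (45 and 24 tags).

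The place with the greatest excess of zfp281 was chr1:26735510-26736070. It had 35.7 tags per kb for pooled bio-zfp148, 12.2 and 17.5 in its replicates, 218 for pooled bio-zfp281, and 60.6 and 24.9 in its replicates. The pooled ratio was 0.164. Its matched pooled bio-zfp281 peak was 4835 bp long with 1052 tags, had its summit 956 bp away, and met a BirA peak, while the bio-zfp281 replicate summits lay 14 and 18 bp from the pooled bio-zfp148 summit. The pooled ratio there compares peaks of very different extent.

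At the other low ratios the peaks differed less in extent, but lengths still entered the ratio. Pooled bio-zfp148 and bio-zfp281 peaks were 652 and 432 bp long at chr16:29040421-29041072, with 29 and 79 tags. At chr19:6667065-6667818 they were 754 and 472 bp long, with 22 and 57 tags. By fold enrichment, the pooled ratios of the 5 lowest places had a median of 0.628 and ran from 0.199 to 0.820. At chr1:109817310-109818055, tags per kb were 24.1 for pooled bio-zfp148, 16.1 and 14.5 in its replicates, 127 for pooled bio-zfp281, and 56.6 and 19.0 in its replicates. At chr16:29040421-29041072 the pooled values were 44.5 and 183, with 13.8 and 17.0 in the bio-zfp148 replicates and 72.7 and 36.9 in those of bio-zfp281. The others were chr19:6667065-6667818 (29.2 and 121) and chr1:31349909-31350435 (20.9 and 100). The pooled bio-zfp281 peak matched to the latter also overlapped the next shared place, chr1:31350446-31350828 (70.5 tags per kb for pooled bio-zfp148), and had its summit there. Scaled to depth, both libraries of the favoured protein exceeded both of the other at all 10 of these extreme places, which were chosen for their pooled ratio.

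Summits of the 2 proteins nearly coincided. The pooled summits were a median of 34 bp apart (quartiles 15 to 74), and 21 places had them on the same base. They were within 10 bp at 396 places (19.1%), within 50 bp at 1307 (62.9%) and within 100 bp at 1691 (81.4%). Over all 21839 pooled bio-zfp148 peaks that overlapped a pooled bio-zfp281 peak, 66.1% were within 100 bp. The places in all 6 lists that were set aside for a BirA peak had closer summits than the shared places, with a median of 28 bp (quartiles 11 to 64). Along the chromosome, the zfp281 summit lay at the higher coordinate 1037 times and at the lower 1019 times. Places were not oriented by motif or gene, so this split cannot show whether there is a side preference.

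The distance between the proteins was about that between replicates of 1 protein. Single-library summits were a median of 41 bp apart between the bio-zfp148 replicates and 46 bp between the bio-zfp281 replicates. The 4 pairings of a bio-zfp148 with a bio-zfp281 library gave 47, 49, 39 and 47 bp. The chromatin was sonicated to between 200 and 1000 bp per the labels, so positions finer than this scatter are not resolved. At 1016 places (48.9%) all 6 summits fell within a span of 100 bp, and the median span was 102 bp.

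**Figure D4:**
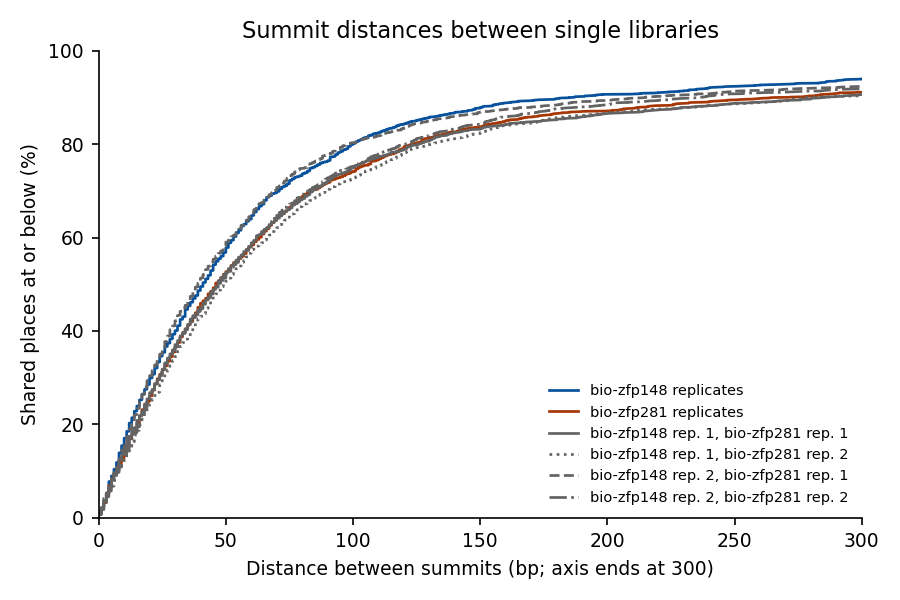
Cumulative share of the 2077 shared places (%) by distance between summits (bp, up to 300) for the replicates of each protein (coloured) and the 4 pairings across proteins (grey). The curves nearly overlie each other, with medians between 39 and 49 bp.

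Summits were tighter at stronger places. With the shared places in 5 equal bins by pooled bio-zfp148 tags per kb, the median distance between the pooled summits of the proteins was 59.5, 44, 39, 29 and 20 bp from the weakest to the strongest bin. The distance between bio-zfp148 replicates fell over the same bins from 67.5 to 24 bp, and that between bio-zfp281 replicates from 73 to 31 bp. Tag number moves with these distances and its part was not tested. Median length fell as well, from 817.5 to 647 bp, and the median ratio of the proteins ran from 0.755 to 1.38, as it must partly do when its numerator sets the order.

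At 104 shared places (5.01%) the pooled summits were over 500 bp apart. In 100 of these at least 1 of the pooled peaks was over 1000 bp long, and the median bio-zfp281 peak there was 1524 bp. At 27 of the 104, both bio-zfp281 replicates also had their summits over 500 bp from the pooled bio-zfp148 summit, and at 11 of those both bio-zfp148 replicates stayed within 100 bp of it. These 11 were picked after their values were seen. At 4 of them the pooled bio-zfp281 peak met a BirA peak, against 86 of all 2077 shared places. The bio-zfp281 replicate summits at the 11 were a median of 32 bp from each other, but 1425 bp apart at chr15:68346484-68347812, where they lay on opposite sides of the bio-zfp148 summit.

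The widest such separation was at chr20:305583-307305. The bio-zfp148 replicates placed their summits 39 and 78 bp from the pooled bio-zfp148 summit, and the bio-zfp281 replicates 1834 and 1836 bp from it. Tags per kb were 26.1 in the pooled bio-zfp148 peak and 46.2 in the pooled bio-zfp281 peak. That bio-zfp281 peak ran from 307245 to 309518, so it overlapped only the end of the place. At chr9:86594411-86595309 the bio-zfp148 replicates lay 28 and 13 bp and the bio-zfp281 replicates 611 and 589 bp away, with 48.9 and 109 tags per kb in the pooled lists. At chr18:45508441-45509358 the distances were 5, 39, 676 and 649 bp. At the last 2 places the pooled bio-zfp281 peak also overlapped a second shared place next to the first, at chr9:86595363-86596157 and chr18:45509374-45510057. Its summit lay within that second place in both cases, so the distance is to the summit of a peak shared with the neighbour.

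Shared places lay on every autosome and on chromosome X. Chromosome 1 had the most, 276, and chromosome 19 was second with 188. Chromosome 19 also had the greatest share of its pooled bio-zfp148 peaks among them, 188 of 2774 or 6.78% (exact 95% interval 5.87% to 7.78%), followed by chromosome 22 with 5.66%. Per Mb up to its last peak chromosome 19 held 3.18 shared places and chromosome 17, the next, 1.61. The lowest shares were 3.34% on chromosome 21, 3.59% on chromosome 5 and 3.64% on chromosome 18. None of 11 peaks on chromosome Y was a shared place, and 5 of them met all 5 required lists but also a BirA peak. So few peaks give no usable share for that chromosome.

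**Figure D5:**
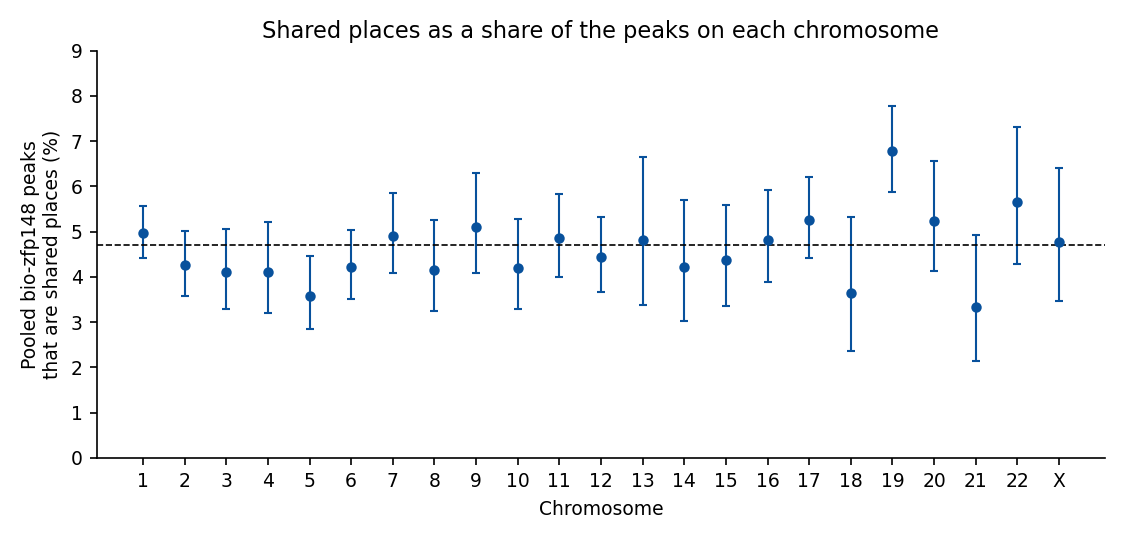
Share of pooled bio-zfp148 peaks on each chromosome that are shared places (%), with exact 95% binomial intervals for counting error. The dashed line is the 4.70% over all chromosomes. Chromosome 19 stands highest at 6.78%. The intervals are no test against the line, because peaks are not replicates.

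Most shared places stood alone. The median distance from 1 shared summit to the next nearest was 140219 bp, and 888 places (42.8%) had another within 100 kb. Another lay within 10 kb at 241 places (11.6%) and within 1 kb at 36. Places that had been set aside for a BirA peak lay within 10 kb of a shared place in 11.5% of cases, all 42125 pooled bio-zfp148 peaks that are not shared places, those set aside included, in 6.11%, bio-zfp281 sites in no bio-zfp148 list in 9.29%, and bio-zfp148 sites in no bio-zfp281 list in 4.58%.

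The 36 places within 1 kb of another formed 18 pairs, and in 11 pairs both were covered by the same pooled bio-zfp281 peak. One pair held the strongest place of all. Its neighbour chr17:58237978-58238789 had 59.1 tags per kb in the pooled bio-zfp148 list, 793 bp from summit to summit, and the 2 had separate pooled bio-zfp281 peaks of 79.2 and 349 tags per kb. In bio-zfp281 replicate 2, however, the same peak of 63 tags was matched to both, and its summit lay in the strongest place. Because shared places are counted as rows of the bio-zfp148 list, such pairs count as 2. Counted as rows of the pooled bio-zfp281 list, the same rule gave 2038 places.

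Of the windows of 100 kb, 4 held 5 or more shared places. The densest was on chromosome 12, with 8 shared places among 31 pooled bio-zfp148 peaks and summits from position 54332612 to 54405725. Their tags per kb ran from 28.5 to 95.8 for pooled bio-zfp148 and from 33.7 to 115 for pooled bio-zfp281. The highest was chr12:54405045-54406025, with 95.8 and 115 tags per kb, 21.9 and 35.4 in the bio-zfp148 replicates and 26.0 and 34.7 in the bio-zfp281 replicates. In this window 3 further places were set aside for a BirA peak. Its neighbours chr12:54381345-54382238 and chr12:54382945-54383704 had the same bio-zfp281 replicate 1 value, 19.0 tags per kb. The latter met a required list by 1 bp only.

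The second window, on chromosome 19 from 42701703 to 42788231, had 7 shared places among 25 peaks, with 29.0 to 55.7 tags per kb for pooled bio-zfp148. One of them, chr19:42773262-42774150, was among the 11 with separate summits, 894 bp apart, and its bio-zfp281 peak met a BirA peak. The other 2 held 5 each among 8 peaks, on chromosome 5 from 141213145 to 141255861 and on chromosome 7 from 75936464 to 76002717. On chromosome 5, chr5:141228128-141228933 and chr5:141229862-141230996 were matched to the same pooled bio-zfp281 peak of 101 tags. Its summit lay 26 and 1336 bp from their bio-zfp148 summits, so these count as 2 in the bio-zfp148 list alone. The strongest place of the chromosome 5 window, chr5:141224805-141225738, had 98.5 tags per kb for pooled bio-zfp148 and 116 for pooled bio-zfp281, with summits 5 bp apart. No place of these windows was among the strongest 20.

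Control peaks were near many shared places. The nearest BirA peak edge was a median of 5248 bp away, with 397 places (19.1%) within 1 kb of one and 1375 (66.2%) within 10 kb. The closest, chr15:40399507-40400454, ended 2 bp from a BirA peak, whereas chr16:81479200-81480637 overlapped one by 2 bp and was set aside. At 86 shared places (4.14%) the pooled bio-zfp281 peak met a BirA peak that the bio-zfp148 peak did not reach. At chr12:54382945-54383704 a required overlap was just 1 bp, and chr5:123964960-123965628 missed 1 list by 5 bp. Genes and sequence at the shared places were not analysed here, since no annotation or genome of build hg19 was used.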

How the data were processed

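Bowtie 1.0.0, MACS 1.4 and the build hg19 are named in the submitters' processing notes. Per the file headers, the peak caller was MACS 1.4.0rc2, run at a p cutoff of 1e-05 with model folds between 10 and 30 and a band width of 300 bp. The authors called peaks on each library and on both replicates joined, against an input, giving 9 lists. Duplicate limits, per the file headers, were 1 tag per position for the 4 tagged single libraries and for BirA replicate 2. The limit was 2 for BirA replicate 1 and for all pooled lists. Each deposited list gives, per peak, a raw tag count, a p score (the negative log10 of p multiplied by 10), a fold enrichment (a ratio to the local background) and a false discovery rate as a percent, all the authors' values. They were read within a list, except that descriptive ratios between the pooled lists and minima over lists are given.

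From these, overlaps, tags per kb (tags over peak length), summit distances and shares were computed with Python 3.11.15, numpy 2.4.6, pandas 2.3.3, scipy 1.17.1 and matplotlib 3.10.9. Where several peaks of a list overlapped a place, the one with most tags was matched. A site of 1 protein alone is a pooled peak met in both of its replicates, in no BirA list and in no list of the other protein. The overlap code was tested on simulated data. A list has no value at an uncalled place, so neither a count model nor any other test was used.

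The members, measures and comparisons were chosen with earlier results of these data known. Named places are the 20 strongest by pooled bio-zfp148 tags per kb, the widest, the narrowest, the one with fewest tags, the one nearest to a BirA peak, the densest windows of 100 kb (4, as 2 tie at 5 places), and the 5 highest and 5 lowest ratios between the pooled lists. Other places named were chosen after their values were seen. Planned shares near gene starts, shares with a G-rich motif and gene lists were not computed, as no hg19 genome or annotation was used here. Alternatives were a 50% overlap, summits within 200 bp, minima of 100 on the p score and 10 in fold enrichment, and a maximum false discovery rate of 5%. Further ones were other uses of the BirA lists, rows of the pooled bio-zfp281 list and other measures of strength. Each replicate list was also left out, for BirA together with the pooled BirA list.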

Additional observations from a re-analysis of the deposited data

How the results depend on the processing

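The number of shared places was 2077. It was within 1.5 times of that under 11 of 16 alternatives, and moved to 126 with fold enrichments of 10 or more required throughout (any overlapping peak, against 125 by matched peaks), to 4474 with no BirA removal and to 4026 when only peaks in both BirA replicates were removed. With each tagged replicate list left out in turn it ranged from 2216 to 3784, the latter without bio-zfp281 replicate 2. Here and below, each BirA replicate was left out together with the pooled BirA list. That gave 2749 places without BirA replicate 1 and 3473 without BirA replicate 2. Leaving out a BirA replicate list alone was not run. An overlap of at least 50% gave 2141, since the BirA overlap must then reach 50% too. Also removing places whose bio-zfp281 peak met a BirA peak, chosen after seeing the data, gave 1991.

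The median summit distance of 34 bp moved to 28 bp with summits within 200 bp, to 27 bp with the fold minimum, and to 47, 49, 39 and 47 bp between single libraries; replicates left out gave 30 to 40 bp. The median tags per kb for bio-zfp148 moved from 52.6 to 57.8 with summits within 200 bp, 70.0 with the fold minimum, 59.6 with no BirA removal and 59.6 with only peaks in both BirA replicates removed, and ran from 45.7 to 62.3 with replicates left out. For bio-zfp281 it moved from 52.4 to 77.6, 62.0 and 60.7 under the last 3 of these, and ran from 40.4 to 62.3. The median ratio of 1.02 became 1.56 by fold enrichment. Of the 20 strongest places, 2 stayed by fold enrichment, 10 by tags, 10 by the worse rank, 10 by bio-zfp148 replicate 1, 6 by bio-zfp281 replicate 1 and 5 by bio-zfp281 replicate 2. The cause of these shifts was not tested.

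Ranking by the p score was not run, as 34 places, 15 of the strongest 20 among them, share its ceiling of 3100. Alternatives for gene starts and motifs were not run. No paired analysis was possible because the results come from no test, as the same peak calls chose the places. Matched peaks of 4 or 5 tags limit what the single libraries show at weak places.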
